A study of Caenorhabditis elegans with 12 samples.

Results

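The comparison described here sets 4 arrays of fer-1(hc1) hermaphrodites against 4 arrays of wild type C. elegans, 8 of the 12 arrays of the series. The fer-1(hc1) worms were strain BA1, which carries a temperature-sensitive allele of fer-1, and the wild type worms were strain N2. Both were hatched as a synchronous population, raised at 25 °C to the young adult stage and passed through a particle sorter whose gate was set to keep adults and leave out fourth-stage larvae. Each sample held RNA of 1000 whole worms, pooled, and 100 ng of RNA was labelled for 1 array. The titles call the arrays of a group biological replicates. The other 4 arrays, of the allele hc24 in strain BA24, are used only to say where hc1 differed from hc24. According to the submitters, 6 preparations of each genotype were made and the 4 that correlated best were kept. These arrays may therefore spread less than all 6 would have, and p-values may be too small by an unknown amount.

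fer-1 encodes a ferlin, a large membrane protein with calcium-binding C2 domains related to human dysferlin and otoferlin. It is known for its role in spermatids, where it is needed for the membranous organelles to fuse with the plasma membrane. Hermaphrodites that lack its function at the restrictive temperature make sperm that cannot crawl, and they lay mostly unfertilised oocytes. A whole adult hermaphrodite holds a large germ line with oocytes, a store of sperm, often embryos, and the intestine, epidermis, muscles and neurons, so each value below is a level in RNA of all these cells together. Fewer cells of a type and less RNA per cell cannot be told apart in such samples.

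fer-1 itself, represented by 1 probe set, was at 1.48, 1.48, 1.47 and 1.47 on the log2 scale in hc1, against 1.46, 1.46, 1.47 and 1.46 in wild type. These values lie below all but 0.111% of the probe sets at most, at the background of the arrays, and they check neither the genotype nor the level of fer-1. The difference of 0.01 lies within the floor of the measurement, although an exact two-sided permutation test gave p = 0.0286, the smallest that 70 assignments of 8 arrays allow.

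Probe sets with a log2 level of 4 or more on 4 or more arrays of the comparison were taken as measured. They numbered 11756 and stood for 8993 genes, each represented by its brightest probe set. A difference was called at an adjusted p under 0.05 (limma, Benjamini-Hochberg over all 11756 probe sets). Array values below are log2 levels in the order of hc1 replicates 1, 2, 5 and 6 and wild type replicates 3, 4, 5 and 6, and each difference is hc1 minus wild type on the log2 scale, ± its SE. By this rule 8013 probe sets were called, 68.2% of those measured, with 5023 (42.7%) higher and 2990 (25.4%) lower in hc1. Of the 8993 genes, 6200 (68.9%) were called, 3814 (42.4%) higher and 2386 (26.5%) lower, and the median difference over all genes was 0.13 on the log2 scale. Every count of a gene list against wild type in the deposited values is to be read against 42.4% higher and 26.5% lower. Counts under another scaling are to be read against the calls it gave among the same 11756 probe sets. These were 3726 higher and 3434 lower after cyclic loess, and 3737 and 3660 with each array centred on its median. Quantile normalization gave 4280 and 3108. The split depends on the scaling: 62.7% of the called probe sets were higher in the deposited values, 57.9% after quantile normalization, 52.0% after cyclic loess and 50.5% after centring each array on its median. All hc1 arrays lay above, or all below, the wild type arrays in 65.6% of the genes (41.4% above and 24.2% below) and in 65.1% of the probe sets (41.8% and 23.3%). Most genes named below were picked for a small adjusted p, so lack of overlap in them follows largely from that choice. The arrays of a group were close to each other, with correlations across probe sets of 0.992 to 0.997 within hc1 and 0.989 to 0.994 within wild type, against 0.908 to 0.937 between the groups.

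hc1 replicate 2 stood apart in a small set of genes. It was at least 2-fold above the mean of the other 3 hc1 arrays in 60 genes, of which 22 were major sperm protein entries and 5 were col collagens, whereas the other hc1 arrays had 5 to 14 such genes and the wild type arrays 9 to 42. msp-38, 1 of the genes for the major sperm protein that drives the crawling of sperm, showed 3.89, 8.81, 3.88 and 4.91 in hc1, against 6.06, 4.53, 5.35 and 5.35 in wild type, and the collagen gene col-129 3.93, 8.49, 4.41 and 4.26 in hc1, against 5.98, 4.93, 4.70 and 5.18 in wild type. In both genes this single array lay above all other arrays of the comparison. The other 3 hc1 arrays lay below the wild type arrays in col-129 and within or below their range in msp-38. Without hc1 replicate 2, 5862 genes (65.2%) were called, 3566 (39.7%) higher and 2296 (25.5%) lower. In all, 5785 genes were called with and without it, 415 lost their call, 77 gained one, and no called gene changed direction.

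Marker lists of the cell types of the animal moved in different directions, and the plot of marker lists by array shows their mean levels. Levels summed over a list are given in units of 1000 on the linear signal scale, over every listed gene on the array. Embryo markers, genes known to be transcribed in the early embryo, summed to 29.2 to 33.5 in hc1 and 7.26 to 7.54 in wild type, and of 30 measured among 51 on the array 26 rose and 4 fell. Oocyte and eggshell markers summed to 455 to 479 in hc1 and 343 to 390 in wild type, with 24 of 29 higher and 0 lower. Larval and molting cuticle markers summed to 61.5 to 77.9 in hc1 and 126 to 145 in wild type, with 25 of 28 measured genes lower. The part of larvae in this difference was not tested. Adult cuticle collagens differed less, at 196 to 214 in hc1 and 218 to 265 in wild type, with 8 of 14 lower and 0 higher.

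Muscle markers summed to 148 to 164 in hc1 and 228 to 268 in wild type, with 34 of 38 lower and 2 higher (0 without hc1 replicate 2). Intestinal markers summed to 651 to 679 in hc1 and 702 to 749 in wild type, with 19 of 33 lower and 2 higher, and neuronal markers to 11.5 to 12.8 in hc1 and 12.7 to 14.3 in wild type, with 12 of 17 measured genes lower and 2 higher and the summed ranges overlapping. Major sperm protein genes summed to 1.47, 1.56, 2.94 and, on replicate 2, 30.2 in hc1, against 1.95 to 5.78 in wild type, and 0 of 22 were called. Without replicate 2, 9 of 22 fell. Other sperm genes overlapped, at 9.76 to 10.52 in hc1 and 9.68 to 10.29 in wild type, with 6 of 13 higher and 3 lower (2 and 4 with each array centred). Of 18 male markers only egl-46, a zinc finger gene that neurons of both sexes also use, was measured, at 4.72, 5.51, 5.01 and 5.77 in hc1, against 9.19, 8.61, 8.94 and 9.15 in wild type, 13.2-fold lower (adjusted p = 1.47e-06). A gene that passed the threshold through 1 group alone had to differ, and these were 8 of the 30 embryo markers, 4 of the 28 larval cuticle markers, 2 of 11 ligand-gated channel genes and at most 1 gene in any other list. The part of these cell types in the results below was not tested.

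**Figure D1:**
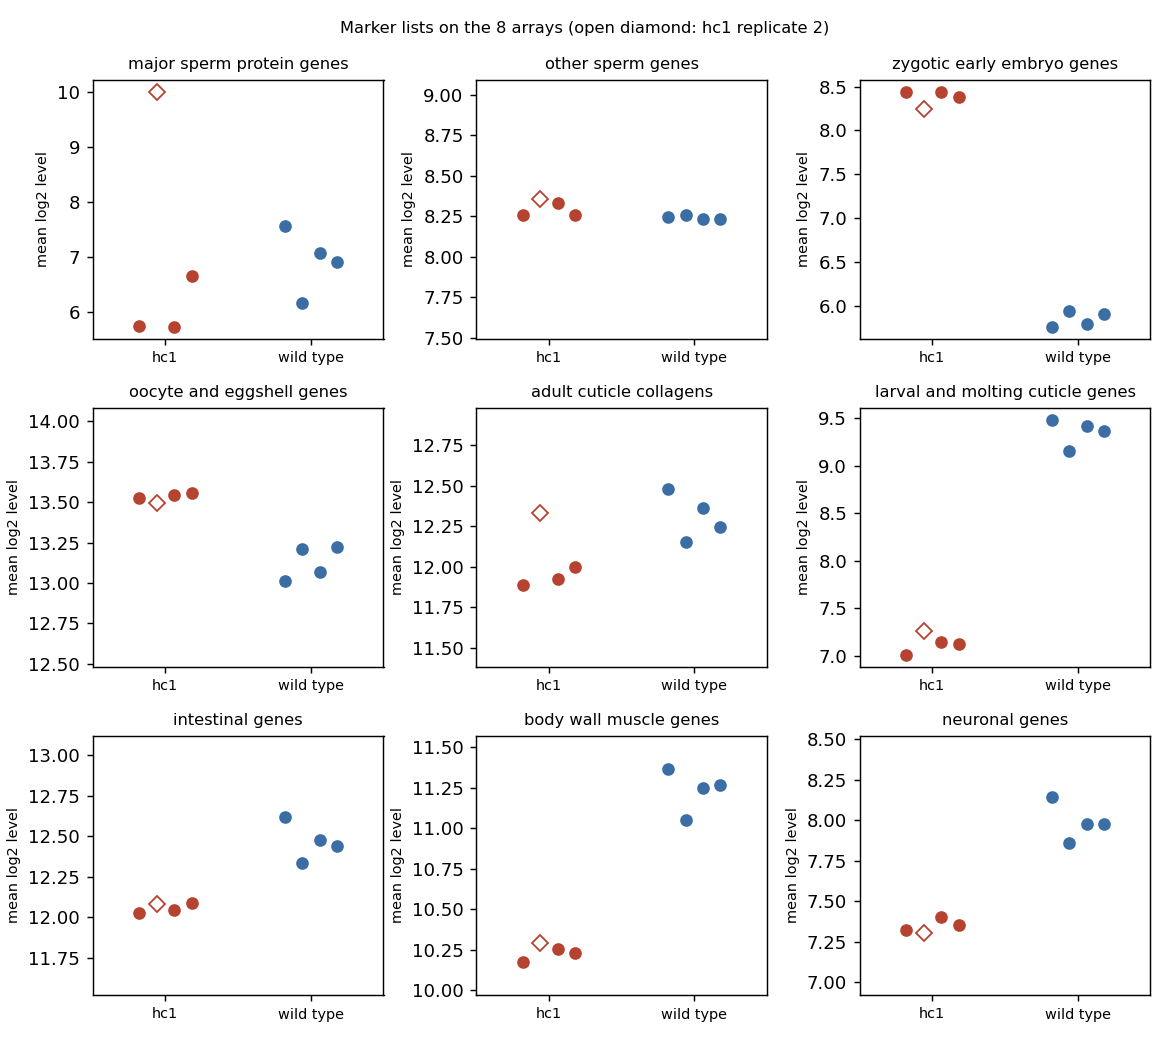
Mean log2 level of the measured genes of 9 marker lists (vertical axes, each panel with its own range) on the 4 fer-1(hc1) arrays, left, and the 4 wild type arrays, right. Each point is 1 array and the open diamond is hc1 replicate 2, which lies at 10.01 for the major sperm protein genes, against 5.73 to 6.67 for the 3 other hc1 arrays.

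Most of the called differences were small. Of the 8013 called probe sets, 5987 (74.7%) differed by less than 2-fold, and of these 4272 were higher and 1715 lower in hc1. Larger differences leaned the other way, with 751 higher and 1275 lower among the 2026 at or above 2-fold. Between 2 and 4-fold, 494 rose and 909 fell, and beyond 4-fold the counts were 257 and 366. The plot of calls by size of the difference shows this turn between 1.5 and 2-fold and 2 to 4-fold, where 1105 higher and 860 lower gave way to 494 and 909. Without hc1 replicate 2, 1153 and 874 gave way to 513 and 916.

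**Figure D2:**
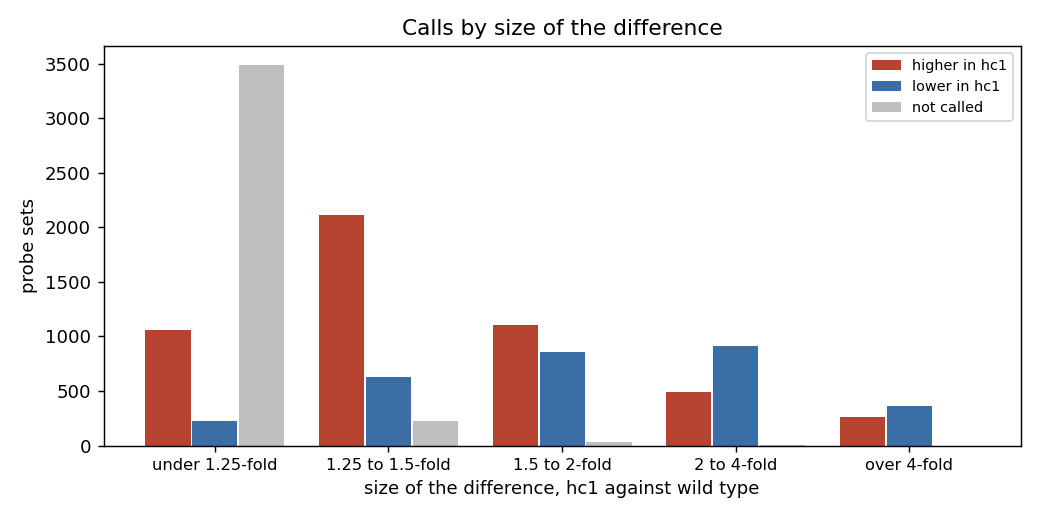
Number of measured probe sets (vertical axis) by the size of the difference between fer-1(hc1) and wild type (horizontal axis), with red bars for calls higher in hc1, blue bars for calls lower in hc1 and grey bars for probe sets not called. Higher calls outnumber lower ones up to 2-fold, 1105 against 860 in the 1.5 to 2-fold class, and lower calls are more frequent beyond it, 909 against 494 in the 2 to 4-fold class.

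Many differences under 2-fold were well beyond the spread between arrays. skr-11, a Skp1-related gene of ubiquitin ligases, was at 6.74, 6.71, 6.66 and 6.76 in hc1, against 5.78, 5.75, 5.77 and 5.84 in wild type, a 1.91-fold rise (difference 0.94 ± 0.06, adjusted p = 1.44e-06). nfya-2, a subunit gene of the CCAAT-binding factor NF-Y, was at 9.71, 9.63, 9.54 and 9.62 in hc1, against 8.74, 8.71, 8.81 and 8.74 in wild type (difference 0.88 ± 0.06, adjusted p = 3.8e-06). The groups were apart in both genes by that choice. On the other side egl-30, the gene for the Gq alpha subunit that promotes egg laying and movement, was at 9.14, 9.16, 9.12 and 9.16 in hc1, against 9.97, 10.13, 10.01 and 9.93 in wild type (difference -0.87 ± 0.06, adjusted p = 4.56e-06). ceeh-1, an epoxide hydrolase gene, was at 8.60, 8.65, 8.50 and 8.65 in hc1, against 9.55, 9.53, 9.58 and 9.44 in wild type (difference -0.93 ± 0.06, adjusted p = 3.28e-06). The separation of the groups in these genes was likewise part of the choice. Between 2 and 4-fold, cdc-25.3, a gene for a phosphatase that activates cyclin-dependent kinases, was at 11.77, 11.68, 11.76 and 11.89 in hc1, against 10.05, 10.05, 10.06 and 10.06 in wild type (3.3-fold higher). ifa-4, an intermediate filament gene, was at 8.94, 8.96, 9.07 and 9.07 in hc1, against 10.87, 10.93, 10.99 and 10.75 in wild type (3.66-fold lower).

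In the deposited values the direction of the calls also went with the level of the gene. Among probe sets with a mean log2 level over 10, 49.7% were higher and 16.1% lower in hc1, and between 8 and 10 the shares were 48.5% and 24.8%. Between 6 and 8, 32.6% were higher and 38.7% lower, and between 4 and 6, 22.7% and 36.5%. The 82 probe sets with a mean under 4 gave 24.4% and 65.9%. Without hc1 replicate 2, 2236 of 4864 probe sets over 10 were higher and 751 lower. Between 4 and 6 the counts were then 318 and 534 of 1504. These shares by level were not counted under the other scalings, and the split of the calls depends on the scaling. For 1021 probe sets (8.68%) the 95% interval of the difference lay within 0.25 of 0 on the log2 scale, and none of these was called. Among the brightest genes of that kind were the yolk protein gene vit-6, at 16.52, 16.59, 16.63 and 16.48 in hc1, against 16.60, 16.61, 16.65 and 16.60 in wild type, the ribosomal protein gene rpl-39, at 16.16, 16.17, 16.17 and 16.16 in hc1, against 16.16, 16.08, 16.42 and 16.21 in wild type, and ilys-5, an invertebrate lysozyme gene, at 16.04, 15.90, 15.94 and 16.10 in hc1, against 16.07, 15.89, 16.06 and 16.05 in wild type. These 3 lie at the top of the signal range of the arrays, where differences are compressed. A further 2722 probe sets were not called and had wider intervals, so that a difference over 0.25 cannot be told from none there.

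Genes of the machinery of the nucleus rose widely and by modest amounts. Of 61 measured genes of pre-mRNA splicing, 56 rose and 0 fell, with a median of 0.43 against 0.13 over all genes. uaf-2, the small subunit of the factor that recognises the end of an intron, was at 11.79, 11.80, 11.84 and 11.99 in hc1, against 10.87, 11.03, 10.81 and 10.93 in wild type (difference 0.94 ± 0.07, adjusted p = 7.78e-06). rsp-6, an SR protein that promotes exon recognition, also rose (difference 0.80 ± 0.08, adjusted p = 2.3e-05). All hc1 arrays lay above all wild type arrays for uaf-2. Of 43 genes of the nuclear pore and of nuclear transport, 35 rose and 0 fell (median 0.47). xpo-2, the exportin that returns importin alpha to the cytoplasm, was at 11.73, 11.76, 11.71 and 11.78 in hc1, against 10.97, 11.16, 10.88 and 11.10 in wild type (difference 0.72 ± 0.07, adjusted p = 4.24e-05). The scaffold nucleoporin gene npp-5 was at 10.73, 10.77, 10.75 and 10.72 in hc1, against 10.02, 10.16, 10.10 and 10.11 in wild type (difference 0.64 ± 0.06, adjusted p = 1.71e-05).

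For RNA polymerase II, TFIID and the Mediator, 59 of 70 genes rose and 2 fell (median 0.43). taf-7.1, a gene for a TFIID subunit, was at 8.72, 8.43, 8.69 and 8.57 in hc1, against 6.38, 6.10, 6.07 and 6.24 in wild type, a 5.29-fold rise (difference 2.40 ± 0.09, adjusted p = 8.71e-08). Its relatives taf-11.1 (difference 1.78 ± 0.08, adjusted p = 2.63e-07) and taf-11.2 (difference 0.77 ± 0.05, adjusted p = 3.77e-06) also rose. The genes that fell were gtf-2A2, a TFIIA subunit (difference -0.61 ± 0.13, adjusted p = 0.00227), and dpy-22, the Mediator subunit MED12, whose fall (difference -0.30 ± 0.12, adjusted p = 0.0479) lost its call without hc1 replicate 2 (adjusted p = 0.118) and without most of the other single arrays.

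Chromatin modifiers and the DREAM complex gave 76 of 97 measured genes higher and 7 lower (median 0.46). spr-3, a zinc finger repressor first found as a suppressor of presenilin mutants, was at 9.71, 9.70, 9.76 and 9.80 in hc1, against 8.56, 8.64, 8.45 and 8.55 in wild type (difference 1.19 ± 0.06, adjusted p = 6.45e-07). lin-15B, a synMuv gene that represses germ line genes in somatic cells, was at 9.78, 9.63, 9.53 and 9.77 in hc1, against 8.21, 8.37, 8.26 and 8.37 in wild type (difference 1.38 ± 0.08, adjusted p = 1.04e-06). Neither gene had overlapping arrays. The falls were larger than the typical rise: set-18, a SMYD-family methyltransferase gene, was at 6.38, 5.84, 6.45 and 5.76 in hc1, against 8.73, 8.57, 8.90 and 9.03 in wild type (6.51-fold lower), and jmjd-3.1, a demethylase of lysine 27 of histone H3, fell by 1.39 on the log2 scale (adjusted p = 5.22e-06).

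Chromosome segregation and repair followed. Of 67 genes of condensin, cohesin and the kinetochore, 54 rose and 1 fell (median 0.37), among them the spindle checkpoint gene mdf-2, which encodes Mad2, at 11.56, 11.50, 11.51 and 11.71 in hc1, against 10.64, 10.64, 10.57 and 10.77 in wild type (difference 0.91 ± 0.07, adjusted p = 8.84e-06). The fall was that of cls-1, a CLASP that stabilises microtubules (difference -0.68 ± 0.10, adjusted p = 0.000402), while its relative cls-3 rose (difference 1.16 ± 0.07, adjusted p = 1.45e-06). Of 53 DNA repair genes, 46 rose and 0 fell (median 0.41), including ung-1, the uracil-DNA glycosylase (difference 0.78 ± 0.09, adjusted p = 5.57e-05), and csb-1, of transcription-coupled repair (difference 0.87 ± 0.07, adjusted p = 9.25e-06). Sex determination and dosage compensation genes gave 34 of 43 higher and 0 lower (median 0.43), with 2 lower after cyclic loess. xol-1, the switch gene that sets male fate when it is high in the embryo, was at 5.64, 5.55, 5.85 and 5.62 in hc1, against 3.23, 3.24, 3.25 and 3.23 in wild type, under the measurement threshold in all 4 wild type arrays and at least 3.17-fold higher in hc1. sex-1, a nuclear receptor gene that counts X chromosomes and represses xol-1 in the embryo, was at 11.00, 10.94, 11.20 and 11.05 in hc1, against 9.90, 9.85, 9.88 and 9.92 in wild type (difference 1.16 ± 0.07, adjusted p = 1.38e-06).

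These 7 lists were higher by count and by median under each scaling. The number of rising members was smallest after cyclic loess, with 40 of 61 for splicing, 28 of 43 for the nuclear pore, 36 of 70 for RNA polymerase II, 59 of 97 for chromatin, 32 of 67 for condensin, cohesin and kinetochore, 23 of 53 for repair and 24 of 43 for sex determination. Without hc1 replicate 2 the numbers were 54, 35, 60, 73, 53, 45 and 34, in the same order of lists. Oocyte and embryo markers rose with these lists, as given above, and their part was not tested.

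**Figure D3:**
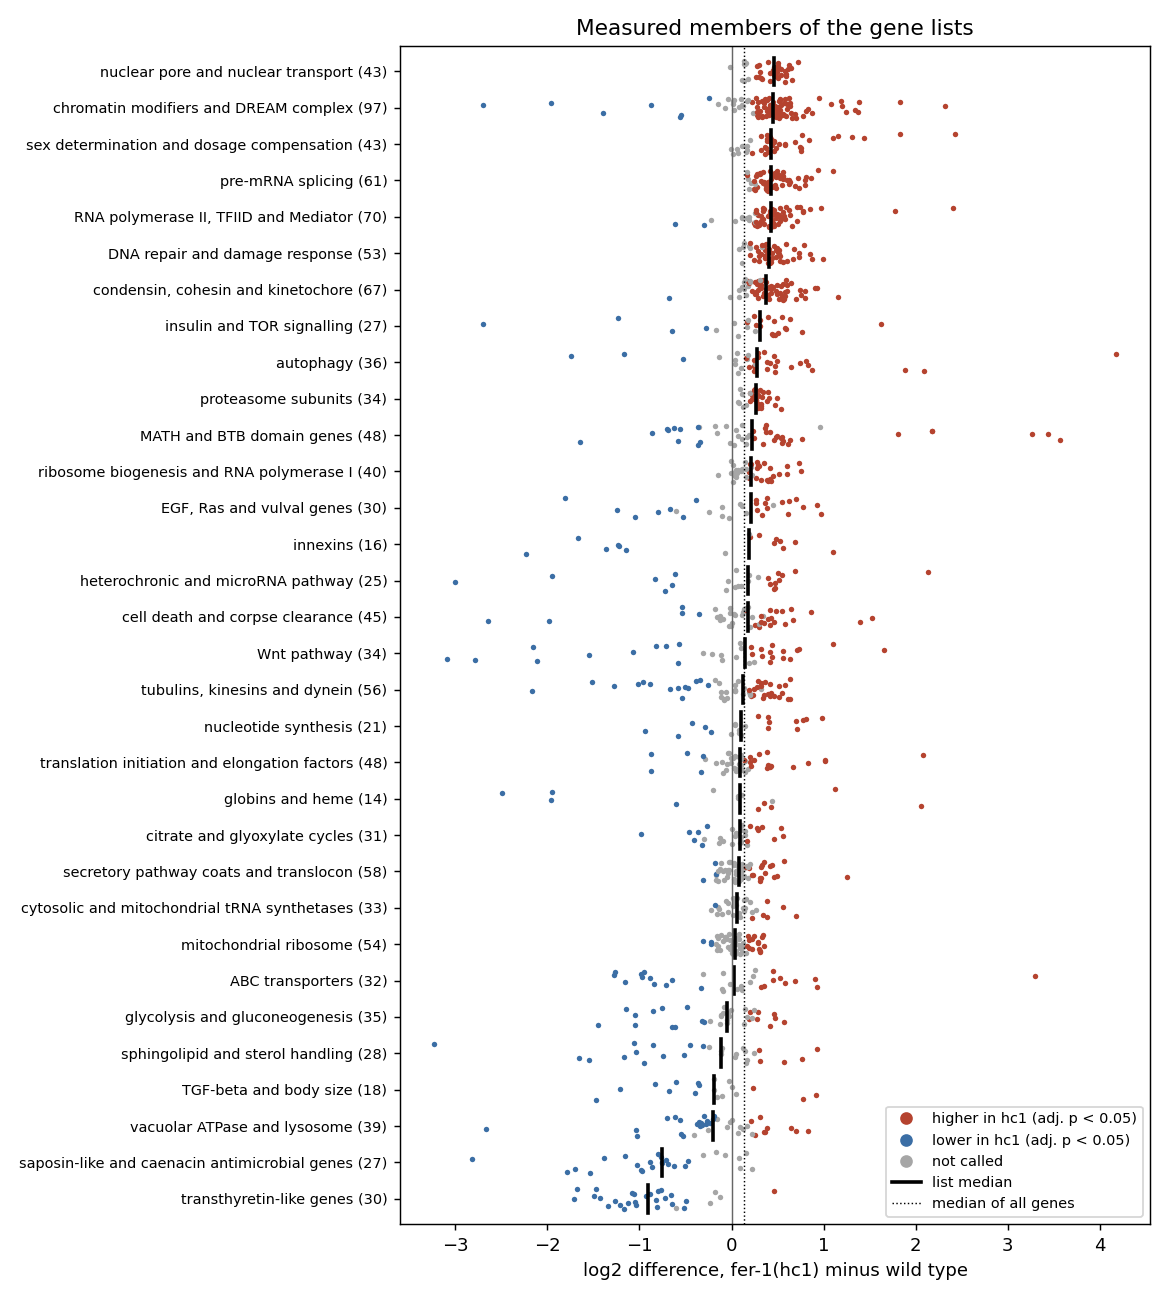
Log2 difference between fer-1(hc1) and wild type (horizontal axis) for each measured gene of the pathway and family lists with at least 14 measured members, marker lists of cell types left out, 1 list per line with its number of genes. Red points are higher and blue points lower in hc1 at an adjusted p under 0.05, grey points were not called, thick bars are list medians and the dotted line is the median of all genes, 0.13. Of the lists plotted, those of the nucleus sit at the top with medians of 0.37 to 0.47, and transthyretin-like genes at the bottom with a median of -0.90.

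The proteasome, which degrades ubiquitin-tagged proteins, had 27 of 34 subunit genes higher and 0 lower (median 0.27), with 25 without hc1 replicate 2, and each rise was under 1.5-fold. dss-1, a small lid subunit, was at 11.92, 11.82, 11.93 and 12.01 in hc1, against 11.37, 11.37, 11.49 and 11.31 in wild type (difference 0.53 ± 0.07, adjusted p = 0.000142). rpn-11, the deubiquitinase of the lid, was at 12.27, 12.25, 12.33 and 12.39 in hc1, against 11.69, 11.93, 11.80 and 11.85 in wild type (difference 0.49 ± 0.07, adjusted p = 0.000301). The groups did not overlap in either gene. With each array centred on its median, 16 of the 34 rose and 0 fell. Of 11 enzymes that activate or conjugate ubiquitin and its relatives, 5 rose and 0 fell, a share near the 42.4% of all genes, among them aos-1 (difference 0.33 ± 0.07, adjusted p = 0.0037) and rfl-1 (difference 0.43 ± 0.09, adjusted p = 0.00303), which activate SUMO and NEDD8. After cyclic loess 2 of the 11 rose, and neither aos-1 nor rfl-1 was called.

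Autophagy genes, which act in the delivery of cell contents to lysosomes, gave 24 of 36 higher and 3 lower (median 0.27), 21 and 3 without hc1 replicate 2, and 15 and 4 after cyclic loess (median 0.11). sepa-1, a receptor that brings P granule proteins of embryos to autophagosomes, was at 10.56, 10.26, 10.58 and 10.23 in hc1, against 6.49, 6.72, 5.55 and 6.15 in wild type, 18.1-fold higher (adjusted p = 7.23e-07). atg-16.1, which takes part in the lipidation of the LGG-1 protein, was at 9.12, 9.09, 9.04 and 9.06 in hc1, against 7.19, 7.19, 7.19 and 7.19 in wild type (difference 1.89 ± 0.05, adjusted p = 1.69e-08). epg-2, an adaptor that links SEPA-1 to LGG proteins, was at 12.32, 12.28, 12.36 and 12.39 in hc1, against 11.61, 11.57, 11.58 and 11.61 in wild type (difference 0.75 ± 0.06, adjusted p = 5.88e-06). The 3 that fell were sqst-1, the p62 cargo receptor, at 10.85, 10.85, 10.85 and 10.54 in hc1, against 12.04, 11.68, 12.14 and 11.90 in wild type (difference -1.17 ± 0.12, adjusted p = 3.29e-05), hlh-30, the TFEB factor of lysosome genes (difference -0.53 ± 0.07, adjusted p = 0.000174), and mxl-3, a Max-like repressor of lysosomal lipases (difference -1.75 ± 0.34, adjusted p = 0.00152). sepa-1 and epg-2 are known for their roles in embryos, and the embryo marker list rose as given above. The part of embryos in these rises was not tested.

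In the list of vacuolar ATPase and lysosome genes 9 of 39 rose and 19 fell (median -0.20), 9 and 17 without hc1 replicate 2, and 5 and 21 after cyclic loess. ppt-1, a thioesterase that removes palmitate from proteins in the lysosome, was at 3.70, 3.70, 3.67 and 3.60 in hc1, against 6.54, 6.52, 5.85 and 6.42 in wild type, under the threshold in all hc1 arrays and at least 5.04-fold lower in hc1. cpl-1, the cathepsin L gene, was at 14.33, 14.32, 14.33 and 14.43 in hc1, against 14.98, 14.81, 14.92 and 14.87 in wild type (difference -0.54 ± 0.06, adjusted p = 8.52e-05). asah-2, an acid ceramidase gene, was at 10.91, 10.89, 11.15 and 11.05 in hc1, against 12.18, 11.85, 12.03 and 12.05 in wild type (difference -1.03 ± 0.09, adjusted p = 1.7e-05). The vha subunit genes of the proton pump gave 2 higher and 14 lower of 18 (0 higher and 13 to 16 lower under the other scalings). Exceptions that rose were lmp-1, the LAMP protein of lysosome membranes (difference 0.70 ± 0.07, adjusted p = 4.9e-05), and laat-1, an exporter of lysine and arginine from the lysosome (difference 0.83 ± 0.15, adjusted p = 0.00107). Intestinal markers were lower by a median of 0.43 beside this list, and their part was not tested.

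Translation and mitochondrial ribosome genes gave no direction that held under every scaling. Of 48 initiation and elongation factors, 17 rose and 5 fell in the deposited values (median 0.09), and 9 rose and 12 fell after cyclic loess (median -0.03). The genes at the ends of this list held their calls. ife-5, an eIF4E of the germ line, was at 7.98, 8.39, 8.28 and 8.34 in hc1, against 6.18, 5.75, 6.32 and 6.44 in wild type, a 4.21-fold rise (difference 2.08 ± 0.15, adjusted p = 5e-06), and eif-3.I rose (difference 1.01 ± 0.06, adjusted p = 1.68e-06). eef-1A.2, an elongation factor gene, was at 12.81, 13.06, 12.88 and 12.84 in hc1, against 13.82, 13.78, 13.73 and 13.73 in wild type (difference -0.87 ± 0.07, adjusted p = 9.93e-06), and iff-2, which encodes eIF5A, also fell (difference -0.87 ± 0.10, adjusted p = 7.02e-05). Of 54 mitochondrial ribosome genes, 15 rose and 3 fell (median 0.04), with 11 and 3 without hc1 replicate 2 and 1 and 24 after cyclic loess. The 33 tRNA synthetase genes gave 6 higher and 1 lower, but 3 and 8 after cyclic loess, and secretory pathway coats and translocon 17 higher and 3 lower of 58 (median 0.08), but 12 and 11 after cyclic loess. Without hc1 replicate 2 the tRNA synthetase genes gave 6 and 0, the secretory list 15 and 1, and the initiation and elongation factors 15 and 6. Ribosome biogenesis and RNA polymerase I gave 22 of 40 higher and 0 lower (median 0.21, and 17 without hc1 replicate 2), and 8 higher and 2 lower after cyclic loess.

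Central metabolism was mixed. Of 35 glycolysis and gluconeogenesis genes 8 rose and 11 fell (median -0.05), and 5 and 17 after cyclic loess. Of the pyruvate kinases, pyk-1 was at 12.81, 12.73, 12.77 and 12.70 in hc1, against 12.45, 12.46, 12.41 and 12.54 in wild type (difference 0.29 ± 0.06, adjusted p = 0.00247). pyk-2 was at 8.63, 8.69, 8.46 and 8.78 in hc1, against 9.59, 9.39, 9.64 and 9.39 in wild type (difference -0.86 ± 0.09, adjusted p = 5.59e-05). The hc1 arrays lay above the wild type arrays for pyk-1 and below them for pyk-2. The list also holds sugar genes beside these pathways. Of these, aagr-4, an alpha-glucosidase gene, fell 2.74-fold (difference -1.45 ± 0.07, adjusted p = 3.65e-07), and tps-2, a trehalose synthesis gene, fell 2.21-fold (difference -1.15 ± 0.13, adjusted p = 5.69e-05). In the list of the citrate and glyoxylate cycles 8 of 31 rose and 6 fell (median 0.09), but 4 rose and 9 fell with each array centred. Without hc1 replicate 2, 7 rose and 7 fell. The falls included idhg-2, an isocitrate dehydrogenase subunit (difference -0.99 ± 0.12, adjusted p = 9.86e-05). The list also holds the mitochondrial pyruvate carrier, which is not itself part of either cycle. Both its subunits fell, mpc-1 (difference -0.46 ± 0.09, adjusted p = 0.00147) and mpc-2 (difference -0.37 ± 0.07, adjusted p = 0.00156). Against hc24, 0 of the 31 were higher and 16 lower in hc1, beside 18.9% higher and 12.9% lower among all genes in that direct contrast.

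Nucleotide synthesis gave 9 of 21 genes higher and 5 lower (median 0.10, and -0.02 with each array centred). The 3 rises with the smallest p were in the supply of deoxynucleotides: tyms-1, thymidylate synthase, was at 12.12, 12.01, 12.12 and 12.04 in hc1, against 10.93, 11.07, 11.13 and 11.24 in wild type (difference 0.98 ± 0.08, adjusted p = 8.29e-06), rnr-1, the large subunit of ribonucleotide reductase, at 13.87, 13.77, 13.91 and 13.92 in hc1, against 13.01, 13.17, 13.01 and 13.19 in wild type (difference 0.77 ± 0.07, adjusted p = 2.09e-05), and dut-1, the dUTPase, rose too (difference 0.71 ± 0.06, adjusted p = 1.45e-05). The purine synthesis gene atic-1 was at 8.59, 8.60, 8.47 and 8.47 in hc1, against 9.50, 9.28, 9.67 and 9.45 in wild type (difference -0.94 ± 0.09, adjusted p = 2.52e-05), and pfas-1 of the same pathway fell as well (difference -0.43 ± 0.10, adjusted p = 0.00391). Sphingolipid and sterol genes gave 5 of 28 higher and 12 lower (median -0.11), and 3 and 16 after cyclic loess, with strm-1, a sterol methyltransferase gene, at 2.63, 2.64, 2.61 and 2.58 in hc1, against 6.06, 5.20, 5.69 and 6.43 in wild type and at least 3.6-fold lower in hc1, elo-5, an elongase of branched fatty acids, lower (difference -0.74 ± 0.08, adjusted p = 3.96e-05), and sms-2, a sphingomyelin synthase gene, higher (difference 0.93 ± 0.07, adjusted p = 7.35e-06).

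Signalling and patterning lists held large changes in both directions. In the Wnt pathway 15 of 34 rose and 10 fell (median 0.15), but 11 rose and 13 fell after centring or cyclic loess. The ligand gene mom-2, which acts in the early embryo, was at 12.46, 12.41, 12.43 and 12.57 in hc1, against 11.72, 11.78, 11.67 and 11.86 in wild type (difference 0.71 ± 0.07, adjusted p = 2.6e-05), and mom-1, a Porcupine gene that lipidates Wnt ligands, was 3.15-fold higher (difference 1.65 ± 0.15, adjusted p = 1.65e-05). The ligand genes cwn-1 and cwn-2 fell: cwn-1 was at 6.38, 6.07, 6.46 and 6.36 in hc1, against 8.83, 8.22, 8.28 and 8.38 in wild type (4.31-fold lower). cwn-2 was at 3.53, 3.58, 3.26 and 3.28 in hc1, against 6.68, 6.33, 5.75 and 6.05 in wild type, at least 4.61-fold lower in hc1. fmi-1, a Flamingo cadherin gene of neurons, was at 4.94, 5.18, 4.83 and 4.79 in hc1, against 8.26, 7.71, 8.04 and 8.06 in wild type (8.49-fold lower), and was higher in hc1 than in hc24 by 1.77 (adjusted p = 2.74e-05). vang-1, the Van Gogh gene of planar polarity, rose (difference 1.10 ± 0.09, adjusted p = 1.22e-05). The counts of the Wnt list lie near the shares of all genes, 42.4% higher and 26.5% lower. The Wnt genes named changed in both directions by more than the spread between arrays. That follows largely from their choice for a small adjusted p.

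In TGF-beta signalling and body size, 3 of 18 rose and 8 fell (median -0.19, and 2 and 7 without hc1 replicate 2). The receptor genes daf-4 (difference 0.92 ± 0.08, adjusted p = 1.66e-05) and daf-1 (difference 0.77 ± 0.09, adjusted p = 6.17e-05) rose. Among those that fell, sma-1, a spectrin gene of the epidermis, was at 10.86, 10.63, 10.76 and 10.68 in hc1, against 12.04, 11.71, 11.99 and 12.04 in wild type (difference -1.22 ± 0.09, adjusted p = 5.8e-06). sma-9, a Schnurri factor, was also lower (difference -0.60 ± 0.09, adjusted p = 0.000384). Insulin and TOR signalling gave 17 of 27 higher and 4 lower (median 0.31), and 11 and 5 after cyclic loess (median 0.17). The kinase gene pdk-1 was at 10.08, 9.91, 10.07 and 10.28 in hc1, against 8.63, 8.31, 8.33 and 8.56 in wild type, 3.09-fold higher (adjusted p = 2.04e-06), and its substrate akt-1 rose (difference 0.51 ± 0.06, adjusted p = 9.06e-05), while sgk-1, a related kinase gene, was at 7.34, 7.50, 7.61 and 7.35 in hc1, against 8.97, 8.66, 8.65 and 8.47 in wild type (difference -1.24 ± 0.11, adjusted p = 1.89e-05). pha-4, the FoxA factor of the pharynx that also acts in the adult and was counted in this list, was at 6.64, 6.55, 6.37 and 6.58 in hc1, against 9.19, 8.92, 9.56 and 9.25 in wild type, 6.47-fold lower.

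Vulval and EGF pathway genes gave 14 of 30 higher and 7 lower (median 0.21), near the shares of all genes, and 10 and 9 with each array centred (median 0.09). The EGF gene lin-3 was at 9.61, 9.61, 9.57 and 9.66 in hc1, against 8.78, 8.90, 8.76 and 8.90 in wild type (difference 0.78 ± 0.06, adjusted p = 8.03e-06), and the adaptor gene sem-5 rose (difference 0.63 ± 0.07, adjusted p = 4.69e-05). The transcription factor genes lin-1 (difference -0.79 ± 0.10, adjusted p = 0.000164) and lin-11 (2.37-fold lower, adjusted p = 0.000174), which act in the cells that form the vulva, fell. Of 25 heterochronic and microRNA pathway genes, which time larval development, 10 rose and 6 fell, near the shares of all genes (8 and 8 after cyclic loess). hbl-1, a hunchback homologue that holds back later larval fates, was at 9.03, 9.15, 9.19 and 9.31 in hc1, against 12.29, 12.01, 12.26 and 12.15 in wild type, 8.03-fold lower, and nhr-25, a nuclear receptor gene of molting, was at 7.37, 7.74, 7.38 and 7.39 in hc1, against 9.60, 9.09, 9.35 and 9.64 in wild type (difference -1.95 ± 0.14, adjusted p = 3.92e-06). pup-3, a gene for a poly(U) polymerase, was at 9.25, 8.75, 8.89 and 9.04 in hc1, against 6.57, 6.96, 6.97 and 6.88 in wild type and rose (difference 2.14 ± 0.13, adjusted p = 1.28e-06). hbl-1 and nhr-25 were both higher in hc1 than in hc24, by 1.48 (adjusted p = 3.82e-06) and 1.00 (adjusted p = 0.00154). Larval and molting cuticle markers fell with these 2 genes, and the part of late larvae was not tested.

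Cell death genes gave 19 of 45 higher, near the share of all genes, and 5 lower (median 0.18), and 13 and 10 after cyclic loess (median 0.09). ced-4, the Apaf-1 gene that activates the caspase CED-3, was at 11.43, 11.45, 11.43 and 11.47 in hc1, against 10.81, 10.90, 10.92 and 10.84 in wild type (difference 0.58 ± 0.06, adjusted p = 3.09e-05). ced-8, which acts in the exposure of phosphatidylserine, was at 8.23, 8.02, 8.35 and 8.13 in hc1, against 6.81, 6.75, 6.82 and 6.74 in wild type (2.64-fold higher), and the nuclease gene crn-4 rose (2.88-fold, adjusted p = 6.15e-06). The 2 factors that decide the death of single neurons fell: ces-2, a bZIP gene, was at 6.66, 7.24, 6.64 and 6.61 in hc1, against 9.66, 9.33, 9.25 and 9.52 in wild type (6.28-fold lower). ces-1, a Snail gene, was at 3.38, 3.38, 3.35 and 3.82 in hc1, against 5.50, 5.25, 5.41 and 5.71 in wild type, at least 2.77-fold lower in hc1. ces-2 was highest in replicate 2 among the hc1 arrays, and its difference without that array was -2.80.

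**Figure D4:**
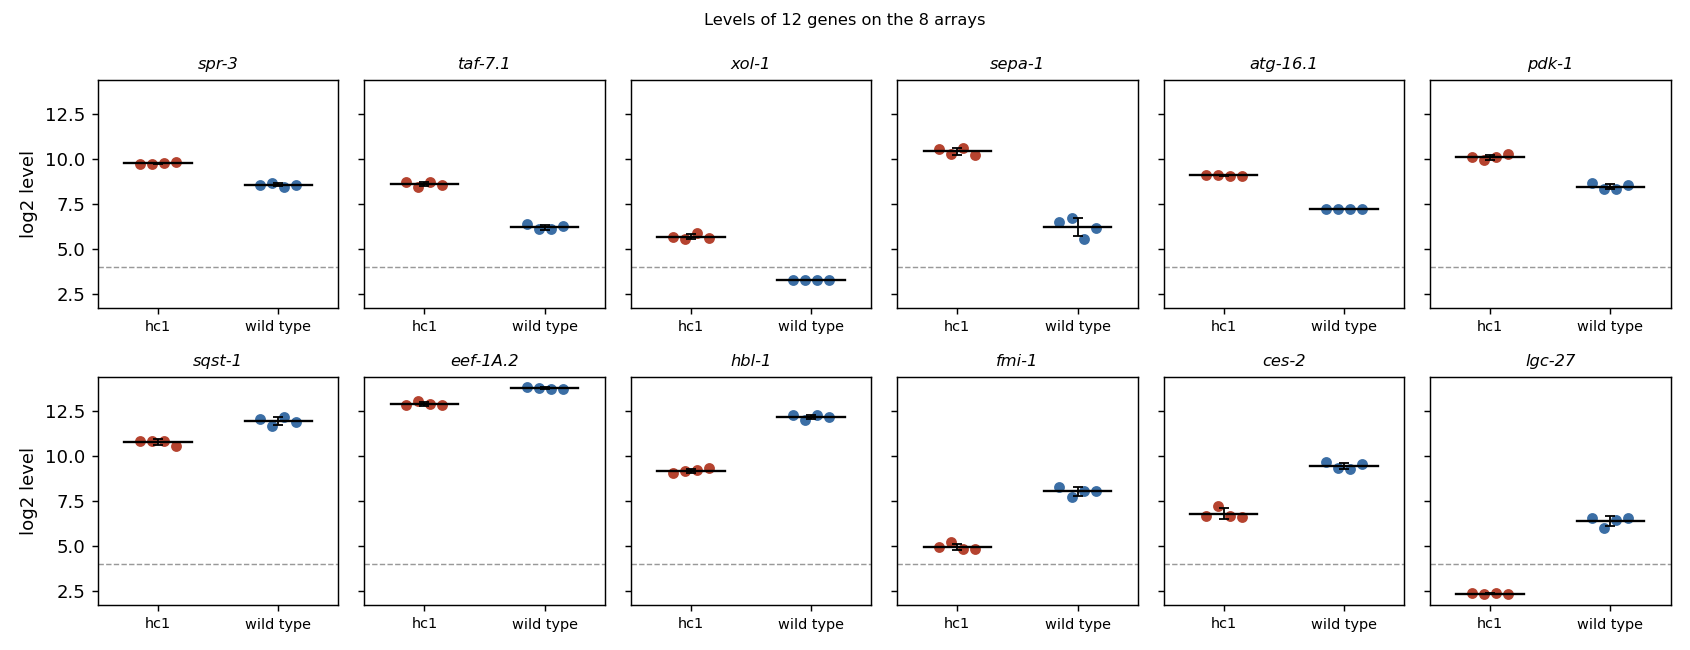
Log2 levels (vertical axis) of 12 genes described in the text on the 4 fer-1(hc1) arrays, left in each panel, and the 4 wild type arrays, right. Points are arrays, horizontal bars with whiskers are means ± SD (n = 4), and the dashed line is the measurement threshold of 4. The arrays of the groups do not overlap in any of the 12 genes, for example sqst-1 at 10.5 to 10.9 in hc1 and 11.7 to 12.1 in wild type. They do not overlap in 65.6% of all genes either, and these 12 were drawn from genes named for a small adjusted p.

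Transthyretin-like genes, a nematode family of small secreted proteins, had 1 of 30 higher and 25 lower (median -0.90). ttr-6 was at 10.09, 10.04, 10.21 and 10.52 in hc1, against 11.93, 11.64, 11.66 and 11.51 in wild type (difference -1.47 ± 0.13, adjusted p = 1.22e-05). ttr-1 was at 7.44, 7.44, 7.35 and 7.54 in hc1, against 8.72, 8.48, 8.67 and 8.56 in wild type (difference -1.17 ± 0.08, adjusted p = 2.01e-06), with no overlap in either. Saposin-like and caenacin antimicrobial genes had 0 of 27 higher and 20 lower (median -0.76), among them the saposin-like gene spp-18 at 12.18, 12.06, 12.28 and 12.16 in hc1, against 13.57, 13.03, 13.31 and 13.41 in wild type (difference -1.16 ± 0.11, adjusted p = 2.8e-05). The epidermal peptide gene nlp-28 was at 10.27, 10.16, 10.26 and 10.29 in hc1, against 11.51, 11.28, 11.27 and 11.04 in wild type (difference -1.03 ± 0.10, adjusted p = 2.28e-05). Both lists gave the same 25 and 20 lower counts without hc1 replicate 2, and at least 19 lower under each scaling. Markers of muscle, intestine and larval epidermis fell beside them, and their part was not tested.

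Innexins, the gap junction proteins of invertebrates, changed in both directions. Of 16 measured among 24, 8 rose and 6 fell, and 6 and 6 after cyclic loess. inx-21, needed for the contact of germ cells with the gonad sheath, was at 10.20, 10.19, 10.28 and 10.26 in hc1, against 9.38, 9.61, 9.63 and 9.54 in wild type (difference 0.69 ± 0.07, adjusted p = 4.1e-05), and inx-3, used in embryos, rose (difference 0.48 ± 0.06, adjusted p = 0.000165). inx-12 was at 9.10, 9.04, 9.25 and 8.90 in hc1, against 10.26, 10.15, 10.31 and 10.13 in wild type (difference -1.14 ± 0.09, adjusted p = 6.1e-06), inx-13 fell as well (difference -1.37 ± 0.11, adjusted p = 7.51e-06). inx-15, an intestinal innexin, was at 8.50, 8.71, 8.68 and 8.46 in hc1, against 9.94, 9.80, 9.69 and 9.83 in wild type (difference -1.23 ± 0.09, adjusted p = 3.33e-06). These 3 had every hc1 array below every wild type array.

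Receptors and channels of neurons and muscle were rarely measured in whole worms. Of 101 ligand-gated channel genes on the array 11 were measured, with 0 higher and 9 lower (8 without hc1 replicate 2). lgc-27 was at 2.38, 2.32, 2.37 and 2.28 in hc1, against 6.56, 5.98, 6.42 and 6.53 in wild type, at least 5.19-fold lower in hc1. cup-4, a channel-like gene that acts in the endocytosis of coelomocytes, was at 6.09, 5.98, 5.97 and 5.99 in hc1, against 7.83, 7.36, 7.52 and 7.39 in wild type (2.86-fold lower). Of 70 potassium channel genes 10 were measured, with 0 higher and 3 lower (1 and 2 after cyclic loess), including twk-18, a muscle channel gene (difference -1.11 ± 0.20, adjusted p = 0.000972). Neuropeptide and amine receptors gave 3 higher and 3 lower of 11 measured among 119. pdfr-1, the receptor gene of the PDF neuropeptides, was at 6.27, 5.81, 5.94 and 6.31 in hc1, against 3.98, 3.46, 3.55 and 3.98 in wild type, at least 4.24-fold higher in hc1. Of 1342 chemoreceptor genes 9 were measured, 1 higher and 6 lower, and of 67 cilia genes 11, with 2 higher and 5 lower. dyf-7, which anchors the tips of sensory dendrites, was at 4.66, 4.87, 4.46 and 4.54 in hc1, against 7.38, 6.52, 7.30 and 7.27 in wild type (5.59-fold lower).

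Transport and heme lists held single large changes. Of 32 ABC transporter genes 10 rose and 11 fell (median 0.02, and -0.15 after cyclic loess), and pgp-4, a P-glycoprotein gene, was at 7.73, 6.96, 7.75 and 7.50 in hc1, against 4.18, 4.18, 4.19 and 4.18 in wild type (9.86-fold higher) while mrp-1 fell (difference -1.16 ± 0.11, adjusted p = 2.56e-05). The wild type values of pgp-4 lie just above the threshold of 4, so its fold rests on signal near background. Among 14 measured globin and heme genes 5 rose and 4 fell (3 and 4 with each array centred). hrg-4, a heme importer gene, was at 4.50, 4.26, 4.43 and 4.26 in hc1, against 7.18, 6.62, 6.78 and 6.86 in wild type (5.65-fold lower). hrg-1, another, was at 8.63, 9.90, 8.84 and 8.72 in hc1, against 11.12, 11.03, 11.08 and 10.71 in wild type (3.89-fold lower). Lower as well was hrg-7, a secreted protease-like gene that reports heme status between tissues (3.86-fold lower). For hrg-1 the hc1 array nearest to wild type was replicate 2, and without it the fall was 4.77-fold. ftn-1, a ferritin gene of the intestine that stores iron, was at 7.15, 8.17, 6.38 and 8.07 in hc1, against 5.74, 5.31, 5.39 and 5.08 in wild type (4.18-fold higher), with the hc1 arrays spread widely and all above wild type. MATH and BTB domain genes, many of them adaptors of cullin ubiquitin ligases, gave 23 of 48 higher and 10 lower (median 0.22). btb-11 was at 9.36, 9.26, 9.53 and 9.47 in hc1, against 6.07, 5.77, 6.01 and 6.03 in wild type (10.8-fold higher). btb-14 was at 5.48, 5.30, 5.29 and 5.42 in hc1, against 6.32, 6.18, 6.24 and 6.19 in wild type (difference -0.86 ± 0.07, adjusted p = 8.81e-06). Tubulin, kinesin and dynein genes gave 23 of 56 higher, near the share of all genes, and 14 lower (16 and 15 after cyclic loess, with a median of -0.02 in place of 0.13), the rises including zen-4, the kinesin of the central spindle (difference 0.64 ± 0.08, adjusted p = 0.000117), and the falls klp-11, a kinesin-II motor of cilia (4.48-fold, adjusted p = 5.16e-05).

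Some genes were measured in 1 group only. In all, 40 genes lay under 4 in each wild type array and at or above 6 in each hc1 array, and 20 genes the other way round. F38C2.7, which has no gene-class name in the annotation, was at 8.93, 8.61, 9.15 and 8.96 in hc1, against 2.66, 2.65, 2.66 and 2.65 in wild type, at least 30.1-fold higher in hc1, and Y44A6C.2 at 8.66, 8.72, 8.66 and 8.55 in hc1, against 2.37, 2.36, 2.38 and 2.00 in wild type, at least 25.1-fold higher. Their wild type values lie at background and their hc1 values in the middle of the signal range. In the other direction cutl-2, a cuticlin-like gene, was at 2.94, 2.62, 2.89 and 2.39 in hc1, against 7.45, 7.20, 7.39 and 7.39 in wild type, at least 10.3-fold lower in hc1, dbd-8 at 1.89, 2.08, 2.42 and 3.35 in hc1, against 7.76, 7.16, 7.22 and 7.64 in wild type, at least 10.9-fold lower, and ugt-57, a UDP-glucuronosyltransferase gene, at 2.65, 2.68, 2.62 and 3.18 in hc1, against 8.05, 6.66, 7.32 and 7.63 in wild type, at least 10.7-fold lower. These genes were named for lying under 4 in each array of 1 group and at or above 6 in each of the other. Their separation was thus fixed by the choice. T19C4.1 was at 3.07, 3.02, 2.64 and 3.07 in hc1, against 7.61, 7.43, 7.53 and 7.97 in wild type, at least 12.4-fold lower in hc1.

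The chromosomes contributed unequally. On the X chromosome 403 of 1209 measured genes (33.3%) were higher and 525 (43.4%) lower in hc1 (median -0.14), and falls outnumbered rises on no other nuclear chromosome. Without the filter on low values this turned, with 603 of 2350 X genes higher and 546 lower (median 0.02), although X still had the largest share of falls, 23.2%. Chromosome I gave 773 of 1522 genes (50.8%) higher and 274 lower (median 0.23), and chromosome III 48.5% and 18.8% of 1477 (median 0.20). Chromosome II gave 677 of 1538 genes higher and 363 lower, chromosome IV 39.3% and 26.4%, and chromosome V 36.9% and 33.2% (median 0.05). The X chromosome of C. elegans is known to be largely silent in the germ line through most of meiosis and to hold few genes expressed mainly there. With each array centred on its median, 28.6% of X genes were higher and 48.6% lower, and after cyclic loess 31.9% and 44.8%. Under these 2 scalings chromosomes IV and V also had more falls than rises, while X kept the lowest median, -0.25 and -0.15. Without hc1 replicate 2 the X shares were 32.3% and 42.3%. Genes of 1 chromosome are not replicates, so these shares carry no test, and oocyte markers rose and muscle and intestinal markers fell beside them. The part of the tissues was not tested. Several of the rises described above are on X: taf-7.1, spr-3, lin-15B, xol-1, sex-1, pdk-1, atg-16.1, ced-8 and pgp-4. Among the falls described here hbl-1, nhr-25, sma-9, sgk-1, hrg-1, twk-18 and dyf-7 are on X.

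**Figure D5:**
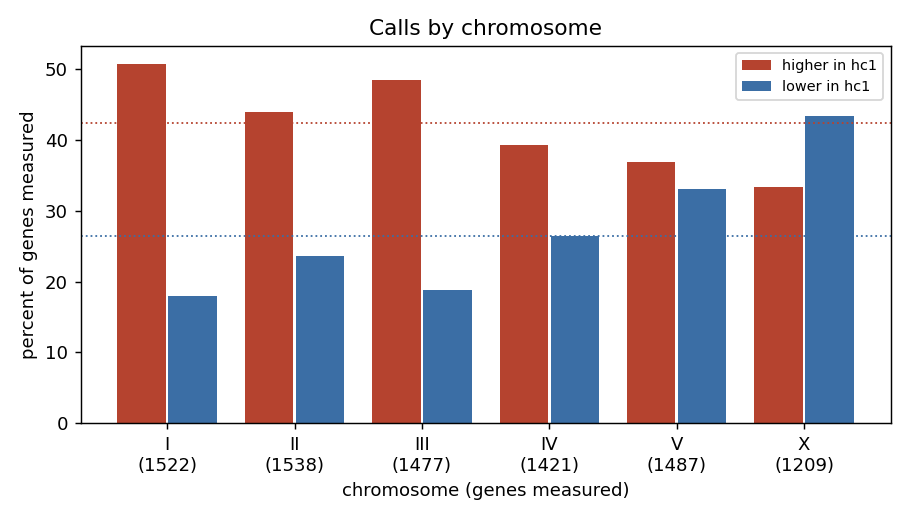
Percent of measured genes (vertical axis) called higher, red bars, and lower, blue bars, in fer-1(hc1) than in wild type on each chromosome, with the number of measured genes under its name. Dotted lines give the shares over all genes, 42.4% higher and 26.5% lower. The X chromosome has 33.3% higher and 43.4% lower, while on chromosome I 50.8% are higher.

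The direct contrast of hc1 with hc24 on the same probe sets called 2856 of 8993 genes (31.8%), 1700 (18.9%) higher and 1156 (12.9%) lower in hc1. Among the marker lists, embryo markers gave 21 higher and 3 lower of 30 in hc1. Adult cuticle collagens gave 0 higher and 14 lower of 14, and muscle markers 1 and 24 of 38. For the lists of the nucleus, members higher in hc1 than in hc24 numbered 11 of 61 for splicing, 8 of 43 for the nuclear pore and 18 of 70 for RNA polymerase II. There were 11 of 67 for condensin, cohesin and kinetochore, 7 of 53 for repair, 29 of 97 for chromatin and 19 of 43 for sex determination. These shares are to be read against the 18.9% of all genes. xol-1 was 1.71 higher in hc1 than in hc24 on the log2 scale (adjusted p = 1.1e-05). Proteasome genes gave 1 of 34 higher and 0 lower. Transthyretin-like genes gave 5 higher and 9 lower of 30, and saposin-like and caenacin genes 11 higher and 7 lower of 27. Against hc24 all 22 major sperm protein entries were lower in hc1, with hc1 replicate 2 at 10.01 in mean log2 level beside 10.2 to 10.5 in the 4 hc24 arrays.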

How the data were processed

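The log2 levels deposited by the authors, 1 for each probe set on each array, were made, per the submitters' processing notes, with Affymetrix Expression Console and GCRMA, whose background correction uses the probe sequence and which also normalizes across arrays and summarises probes. The version of neither is given in the sources used. Of 22625 probe sets 77 array controls were left out. The platform annotation paired 20810 others with 1 gene symbol, 843 with several and 895 with none. Symbols were checked by Entrez ID against RefSeq genes of assembly WBcel235, which held 20702 and gave chromosome names, and 0 changed. A linear model with a mean per group was fitted to the 8 arrays with limma 3.58.1 in R 4.3.3 on all 11756 measured probe sets, with Benjamini-Hochberg adjustment. The hc24 contrast used a fit on 12 arrays. The fit was tested on simulated data. Where all arrays of a group lay under 4, it was held at 4 and the fold is "at least".

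A gene is represented by its brightest probe set (8702 single genes and 291 entries of several genes, which enter a list only if all are members). Of 2130 genes with over 1 probe set 10 had opposite calls. Members and lists were chosen with earlier results of these data known. 8 entries with a mistaken role were removed from the lists after values were seen. Named genes have 1-gene probe sets: per list up to 3 rises and 3 falls of smallest adjusted p, 5 per fold class and direction, the brightest equal genes, genes under background in 1 group, and those most apart in hc1 replicate 2, and the text names a part of the 280 that this gives. The 5 family genes named in the closing section lie outside it. Arrays have no depth, and their number limits the precision.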

Additional observations from a re-analysis of the deposited data

Results flagged for a closer look

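In 22 of 350 sets of 4 arrays, taken from the genes and lists named in the text, 1 array lay far from the other 3 by Dixon's test at the 95% level, which chance gives in about 1 in 20 sets. The sets include genes named for lying apart in hc1 replicate 2, such as col-129. The count of 22 therefore cannot be set against that rate. 4 of these came from hc1 replicate 2, which was high in col-129 (8.49, others 3.93 to 4.41), hrg-1 (9.90, others 8.63 to 8.84), ces-2 (7.24, others 6.61 to 6.66) and nhr-25 (7.74, others 7.37 to 7.39). Without this array the falls of hrg-1, ces-2 and nhr-25 were larger (differences -2.25, -2.80 and -2.04, against -1.96, -2.65 and -1.95 with it).

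hc1 replicate 6 was high in ces-1 (3.82), cpl-1 (14.4), tps-2 (8.49) and ugt-57 (3.18), and low in laat-1 (7.97) and sqst-1 (10.5). hc1 replicate 5 was low in T19C4.1 (2.64) and sms-2 (9.12), and hc1 replicate 1 was high in cup-4 (6.09). Among the wild type arrays, replicate 4 was low in the MATH and BTB list mean (7.53), dyf-7 (6.52), ilys-5 (15.9) and dnj-23 (10.5), replicate 3 was low in dut-1 (13.6), replicate 5 was low in ppt-1 (5.85) and high in xol-1 (3.25), and replicate 6 was low in Y44A6C.2 (2.00) and high in eif-3.I (8.36). Values under 4 in this list lie at background.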

How the results depend on the processing

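Counts of calls against wild type stayed within 1.5 times the reported ones under every alternative run except 1. With the replicate number as a block, 2682 probe sets were higher in place of 5023, and 2366 lower in place of 2990. The groups share only the numbers 5 and 6, so with the block the difference rests on replicates 5 and 6 alone. The deviations of same-numbered arrays correlated at -0.02 and -0.07. So few arrays cannot settle whether the numbers pair the samples. Leaving out 1 array in turn gave 4549 to 4894 higher and 2783 to 3076 lower, of which 714 to 781 and 1150 to 1385 were at least 2-fold. Against hc24 the same gave 1645 to 2012 higher and 1203 to 1350 lower, with 250 to 275 and 356 to 383 at least 2-fold. Without hc1 replicate 2, higher and lower calls against wild type were 7 and 11 for glycolysis and gluconeogenesis and 9 and 4 for nucleotide synthesis. Sphingolipid and sterol genes gave 4 and 12, innexins 7 and 6, and ABC transporters 10 and 10. Tubulin, kinesin and dynein genes gave 22 and 13, cell death genes 18 and 4, Wnt genes 13 and 10, and vulval and EGF genes 13 and 8. Without the filter on low values 10445 of 22548 probe sets were called, 69.7% of them higher. Of the named genes, col-129 and msp-38 turned to called falls without hc1 replicate 2 (ranges over single arrays left out -0.997 to 0.523 and -1.10 to 0.55), and msp-38 also with the block (-0.96), where 7 other named genes lost their calls. Under quantile normalization no named gene changed its call, after cyclic loess aos-1 and rfl-1 lost theirs, and after median centring vit-6 gained one. dpy-22 lost its call with most single arrays left out, with all 12 arrays, without the filter, with probe sets averaged and with the block. The cause of these changes was not tested. Signal near background limits the rest: fer-1 and most receptor and channel genes could not be measured. Sequences of probes, promoters or proteins were not used here, and the planned search of promoters for motifs was not run.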

Other observations

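Gene families defined by the first part of the gene name, with at least 8 measured members (115 families), were looked at after the values were seen, and the families and genes named in this paragraph were chosen from that survey, so their counts are a description. Galectins, the lec genes for secreted lectins that bind galactose, had 0 of 11 members higher and 10 lower (median -0.76), and lec-5 was at 11.56, 11.39, 11.60 and 11.35 in hc1, against 12.58, 12.24, 12.46 and 12.37 in wild type (difference -0.94 ± 0.09, adjusted p = 3.02e-05). Carboxylesterases of the cest family had 0 of 20 higher and 13 lower (median -0.54, with 2 higher and 11 lower after cyclic loess), and cest-17 was at 7.80, 7.80, 7.67 and 7.32 in hc1, against 9.39, 9.02, 9.37 and 9.25 in wild type (3.05-fold lower). Aldehyde dehydrogenase genes had 0 of 12 higher and 7 lower (median -0.40, and 1 and 10 after cyclic loess), and alh-13 was at 7.89, 7.94, 7.71 and 8.02 in hc1, against 9.59, 9.29, 9.18 and 9.27 in wild type (2.72-fold lower). The hc1 arrays of these 3 genes lay below all wild type arrays. On the rising side, algn genes of asparagine-linked glycosylation had 8 of 10 higher and 0 lower (median 0.36, and 4 and 0 after cyclic loess), with algn-3 at 8.11, 7.87, 8.08 and 7.92 in hc1, against 7.26, 7.51, 7.39 and 7.54 in wild type (difference 0.57 ± 0.09, adjusted p = 0.000449). DnaJ co-chaperone genes had 16 of 28 higher and 1 lower (median 0.29, and 10 and 4 with a median of 0.07 after cyclic loess), with dnj-23 at 11.48, 11.38, 11.33 and 11.41 in hc1, against 10.66, 10.54, 10.65 and 10.67 in wild type (difference 0.77 ± 0.06, adjusted p = 9.54e-06). Without hc1 replicate 2 the counts were 0 and 10 for galectins, 1 and 13 for carboxylesterases, 0 and 7 for aldehyde dehydrogenases, 7 and 0 for algn genes and 16 and 1 for DnaJ genes.

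Genes of the cytosolic ribosome gave 0 of 44 higher and 2 lower for the large subunit and 0 of 30 and 2 for the small subunit, with medians of -0.06 in each case, beside 42.4% higher and 26.5% lower among all genes. With each array centred on its median, 29 of the 44 and 19 of the 30 were lower. The other scalings did not give this. Under quantile normalization, and under cyclic loess as well, the large subunit gave 0 higher and 2 lower. The small subunit gave 0 higher and 0 lower under both. These transcripts lie near the top of the signal range.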
